A study of Rattus norvegicus with 11 samples.

Results

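The 9 genes Fkbp5, Tsc22d3, Nfkbia, Zbtb16, Bcl6, Cebpd, Sgk1, Ddit4 and Errfi1 are ones that glucocorticoid hormone is known to switch on, and they were followed in ventricular myocytes of male and female rats. They were taken by symbol from a table of 17257 genes, and all 9 had a row with reads. The cells came from wild-type Sprague Dawley rats aged 3 to 4 months, were isolated by Langendorff perfusion, kept on dishes for 45 minutes with no treatment and frozen. The groups were 6 male and 5 female libraries of total RNA depleted of ribosomal RNA, and the study asked how sex relates to myocyte gene expression. No hormone was given, so no response to a hormone was measured. The values describe levels in cells that had been isolated and plated, which need not be those of the resting heart. The table holds a mean for each sex and the authors' own test, with no value for any single library, so the spread between animals enters only through the authors' p-values.

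Corticosterone, the main glucocorticoid of the rat, enters the cell and binds a receptor that waits in the cytosol in a complex with Hsp90 chaperones. The bound receptor moves to the nucleus, attaches to DNA at glucocorticoid response elements and raises or lowers transcription nearby. Among the genes that respond in many tissues are brakes on the hormone itself, on inflammation and on growth signalling, and the heart muscle cell is a known target.

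Of the 9 members, 7 had a promoter entry in RefSeq (rat assembly GRCr8), and Sgk1 and Tsc22d3 had more than 1 start site, which gave 11 windows running from 250 bases before to 50 bases after a start. Cebpd and Zbtb16 had none there. Printed here are Nfkbia and Ddit4, the members with the highest ratio of female to male mean among those with an entry, Errfi1, which had the lowest ratio, and Fkbp5, a standard readout of receptor activity. Nfkbia lies at chr6:78597023-78597322 on the minus strand, Ddit4 at chr20:28436988-28437287 on the minus strand, Errfi1 at chr5:166606591-166606890 on the plus strand and Fkbp5 at chr20:6543506-6543805 on the minus strand, all in GRCr8 and written 5′ to 3′ along the gene. Capitals mark the match to the kB motif in Nfkbia, CCAAT or its reverse in Ddit4, Errfi1 and Fkbp5, and also TATAAA in Errfi1.
Nfkbia: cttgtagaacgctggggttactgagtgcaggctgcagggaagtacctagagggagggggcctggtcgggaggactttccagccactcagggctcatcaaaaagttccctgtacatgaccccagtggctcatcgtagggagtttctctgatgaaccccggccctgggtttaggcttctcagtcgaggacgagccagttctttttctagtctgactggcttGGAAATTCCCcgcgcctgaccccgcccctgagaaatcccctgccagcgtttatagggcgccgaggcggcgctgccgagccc
Ddit4: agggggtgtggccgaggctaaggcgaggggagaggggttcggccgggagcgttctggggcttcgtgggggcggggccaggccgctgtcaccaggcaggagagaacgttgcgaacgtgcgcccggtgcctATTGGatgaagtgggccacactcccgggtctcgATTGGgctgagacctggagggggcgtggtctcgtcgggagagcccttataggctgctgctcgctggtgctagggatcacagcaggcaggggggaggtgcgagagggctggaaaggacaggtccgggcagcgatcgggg
Errfi1: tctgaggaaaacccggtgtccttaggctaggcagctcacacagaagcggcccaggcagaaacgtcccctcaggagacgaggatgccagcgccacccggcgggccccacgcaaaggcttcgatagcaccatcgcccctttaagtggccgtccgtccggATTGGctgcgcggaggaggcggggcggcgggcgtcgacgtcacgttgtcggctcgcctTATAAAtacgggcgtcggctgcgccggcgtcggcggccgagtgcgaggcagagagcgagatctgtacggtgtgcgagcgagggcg
Fkbp5: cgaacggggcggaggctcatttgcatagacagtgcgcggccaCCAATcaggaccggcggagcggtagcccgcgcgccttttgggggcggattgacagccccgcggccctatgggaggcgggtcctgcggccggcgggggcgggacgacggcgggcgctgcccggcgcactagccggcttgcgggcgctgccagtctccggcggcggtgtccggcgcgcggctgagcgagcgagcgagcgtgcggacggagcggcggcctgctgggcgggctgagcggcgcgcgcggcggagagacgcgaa

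Motifs were searched on both strands. The palindromic response element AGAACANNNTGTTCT was in none of the 11 windows and in 0.0149% of all 33469 promoter windows of the same length. Its half-site AGAACA, which lies within the full element, was also in none of the 11, against 20.7% of all windows. The kB motif GGGANNTTCC, the binding sequence of NF-kB factors, was found in Nfkbia only, where it starts 31 bases before the start site in the reverse direction, and in 1.30% of all windows. TATAAA was in 5 of the 11 windows, in Sgk1, Tsc22d3, Errfi1 and Nfkbia, against 14.2% of all. Sgk1 had it in more than 1 window, and in Nfkbia the match lay after the start site, from base 18, in the reverse direction. GGGCGG, the GC box, was in 8 of 11 against 33.1%, CCAAT in 5 of 11 against 37.5%, the E-box CACGTG in 1, Bcl6, against 6.42%, and TGACGTCA in none against 1.83%. The median GC content of the 11 windows was 66.0% and that of all windows 51.7%. Fkbp5 had the highest GC content of them, 77.0%, and 1 of the Sgk1 windows the lowest, 40.7%. These matches describe the letters of short windows, and sites farther from the start were not searched.

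None of the 9 genes passed an adjusted p of 0.05 between males and females by the DESeq test of the authors' deposited table, adjusted by Benjamini-Hochberg over 13346 genes, where 14.5% of all genes tested did, 6.71% higher and 7.76% lower in females. Among other genes within 1.5 times a member's mean, the share called ran from 11.3% for Ddit4 to 29.2% for Nfkbia. Whether the members differ from these shares was not tested. Nfkbia alone had an unadjusted p under 0.05, which is 1 of 9 members against 27.3% of all genes. Female means were above male means for 4 members and below them for 5. The split was 7 and 2 once both sexes were scaled to the same total over all rows, and 3 and 6 over rows with a gene symbol. Such scaling shifts every gene alike, and the median log2 fold change of genes with a mean of 50 or more became 0.15 and -0.065. As deposited, the log2 fold changes of the members, female over male, ran from -0.26 to 0.42 with a median of -0.02. The median over the 12315 genes tested with a mean above 0 in both sexes was -0.01. In size, regardless of sign, the median log2 fold change of the members was 0.21, against 0.29 in the 9116 genes whose mean was 50 or more. In 4 members, Fkbp5, Bcl6, Zbtb16 and Sgk1, the sexes differed by less than 10%.

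**Figure D1:**
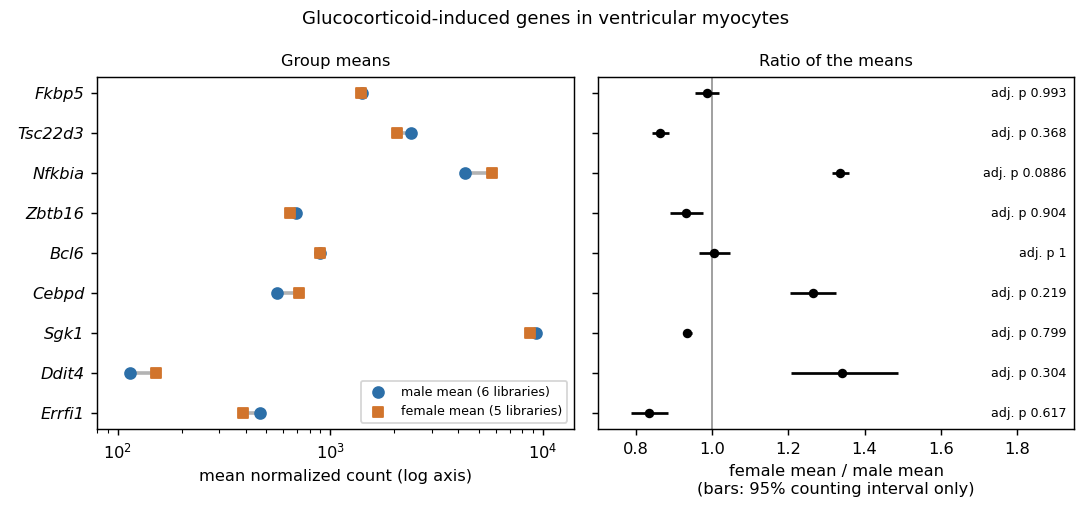
Mean normalized count of the 9 genes in males (circles, 6 libraries) and females (squares, 5 libraries) on a log axis, and the ratio of the female to the male mean with its 95% counting interval, beside the authors' adjusted p. Nfkbia, Ddit4 and Cebpd lie to the right of 1, Tsc22d3, Errfi1, Zbtb16 and Sgk1 to the left, Fkbp5 and Bcl6 have bars that cross 1, and no adjusted p is under 0.05; the bars hold counting error only and not the spread between animals.

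The feedback gene of the receptor itself had nearly the same level in both sexes. Fkbp5 encodes a co-chaperone that binds the receptor complex and lowers its affinity for the hormone. Males averaged 1410 normalized counts of it and females 1391 in the authors' deposited table, a ratio of 0.986 at adjusted p = 0.993. About 8461 normalized reads in males and 6954 in females stood behind these means, which gave an exact 95% counting interval for the ratio from 0.955 to 1.02. Such intervals, made from the group sums, cover counting error only, since reads copied by PCR are not independent molecules and animals vary.

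Members that restrain inflammatory signalling went separate ways in their means. Nfkbia encodes the inhibitor that keeps NF-kB in the cytosol, and it is itself an NF-kB target. Males averaged 4302 normalized counts and females 5746, which gives a log2 fold change of 0.42 at unadjusted p = 0.0170 and adjusted p = 0.0886 in the authors' deposited table. At an adjusted p under 0.1 it would be the single member called, where 20.5% of all genes are. Among the 696 other genes whose overall mean lay within 1.5 times that of Nfkbia, 203 passed 0.05, and 46 of those did so with a fold no larger than that of Nfkbia. A further 33 genes with a larger fold did not pass. Tsc22d3 encodes GILZ, a leucine zipper protein that mediates anti-inflammatory effects of the hormone. Its means were 2389 and 2066, a ratio of 0.865 at adjusted p = 0.368 in the authors' deposited table. The female mean was thus above the male mean for Nfkbia and below it for Tsc22d3, and neither difference was called.

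The transcription factors among the members were Zbtb16, Bcl6 and Cebpd. Zbtb16 (PLZF) and Bcl6 are repressors that share a BTB domain and zinc fingers. The Zbtb16 mean was 693 in males and 646 in females, which gives a log2 fold change of -0.10 at adjusted p = 0.904 in the authors' deposited table. For Bcl6 the means were 892 and 898, the closest pair of the 9, with a ratio of 1.01 and a counting interval from 0.967 to 1.05. The adjusted p was 1.0 in the authors' deposited table. Cebpd, a basic leucine zipper factor that is induced early by hormones and cytokines, had means of 563 and 711. That is a ratio of 1.26 at adjusted p = 0.219 in the authors' deposited table. The counting interval of the ratio ran from 1.21 to 1.32. Of 2006 other genes within 1.5 times its mean, 429 were called, none of them with a fold as small as that of Cebpd.

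The members that act on kinase signalling were Sgk1, Ddit4 and Errfi1. Sgk1 encodes a kinase that sets the surface level of ion channels and transporters. Its means were 9297 in males and 8691 in females, which gives a log2 fold change of -0.10 at adjusted p = 0.799 in the authors' deposited table. Ddit4 (REDD1) turns down the growth kinase mTORC1 under stress and after hormone. Its means were 114 and 152, the largest log2 fold change of the 9 at 0.42, at adjusted p = 0.304 in the authors' deposited table. Only 683 and 762 normalized reads stood behind them, the fewest of any member, and the counting interval of the ratio ran from 1.21 to 1.49. Of 1193 other genes within 1.5 times its mean, 11.3% were called, and the median log2 fold change in size of those called was 0.90. Errfi1 (MIG6), an inhibitor of receptors of the epidermal growth factor family, had means of 466 and 389. Its log2 fold change of -0.26 was the lowest of the 9, at adjusted p = 0.617 in the authors' deposited table.

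**Figure D2:**
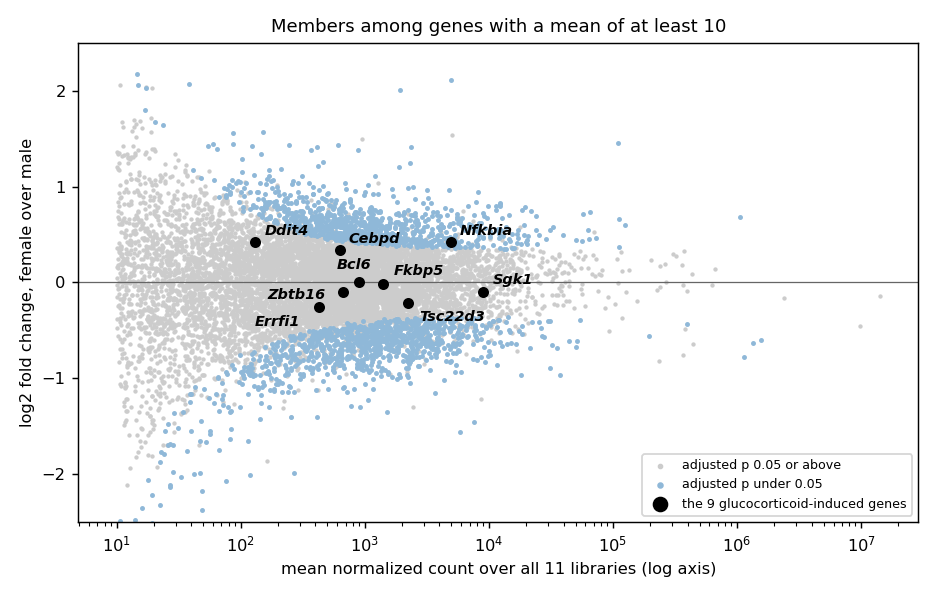
Log2 fold change, female over male, against the mean normalized count over all 11 libraries (log axis) for 10518 genes with a mean of at least 10, with genes under an adjusted p of 0.05 in blue and the 9 members in black; 20 genes lie beyond the limits of 2.5. The members other than Nfkbia sit inside the grey band of genes that were not called, and Nfkbia lies where called and uncalled genes overlap.

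Other genes known to be induced by glucocorticoids were called about as often as genes in general. Among 25 tested, 3 were higher and 1 lower in females, against 6.71% and 7.76% of all genes, with a median log2 fold change of 0.03. With the adjustment made over genes with a mean of at least 50, 5 were higher and 1 lower. The share of all genes called at that setting was not computed. At an adjusted p under 0.1, 6 were higher and 1 lower, where 20.5% of all genes were called in either direction. Zfp36, which encodes a protein that destabilises cytokine mRNAs, rose from 14087 to 23759, Dusp1, a phosphatase gene that ends MAP kinase signals, from 5819 to 10372, and Per1, a clock gene, from 866 to 1434 in the authors' deposited table. Their log2 fold changes there were 0.75, 0.83 and 0.73. Anxa1, the gene of the anti-inflammatory protein annexin A1, fell by 0.54 on the log2 scale of the authors' deposited table. The genes added by the looser settings were Foxo1, a transcription factor gene of fasting, Lpin1, a gene of lipid synthesis, and Irs2, which relays insulin signals. Their log2 fold changes were 0.40, 0.35 and 0.47 at adjusted p = 0.0656, 0.0670 and 0.0789 in the authors' deposited table. For Pdk4, a kinase gene that limits glucose oxidation, the means were 9832 and 7701 at adjusted p = 0.515 in the authors' deposited table. These 4 genes were chosen after their values were seen. Zfp36, Dusp1 and Per1 are also immediate early genes, which cells switch on when handled. A separate list of 10 such genes had 5 called higher in females and none called lower, with a median log2 fold change of 0.51. The 4 of them with the smallest p were Nr4a1 (1.11), Ier2 (0.88), Junb (0.80) and Fos (0.54) by the authors' deposited table. Female means were above male means for 9 of the 10 and below for 1, Atf3. Its log2 fold change was -0.53 at adjusted p = 0.121 in the authors' deposited table. What part handling has in the values of Zfp36, Dusp1 and Per1 was not tested.

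Genes of the receptor and its helpers were called in both directions. Of 23 tested genes of this machinery, 3 were higher and 3 lower in females, against 6.71% and 7.76% of all genes. Nr3c1, the glucocorticoid receptor gene, had a male mean of 5595 and a female mean of 3341, and fell by 0.74 on the log2 scale at adjusted p = 0.0062 in the authors' deposited table. H6pd, which supplies the cofactor for the enzyme that regenerates active hormone inside cells, rose from 410 to 671 at adjusted p = 0.0018 in the authors' deposited table. Hsd11b1, the gene of that enzyme, had means of 222 and 174 at adjusted p = 0.640 in the authors' deposited table and was picked out after its value was seen. Ppid, a co-chaperone of the receptor complex, fell by 0.43, while the coactivator gene Crebbp rose by 0.47 on that scale in the authors' deposited table. Hsp90aa1, which is counted among the 3 lower, had means of 720 and 2.12 there. Near-identical pseudogenes exist for it, and how the counting divided reads among them was not tested, so the value is uncertain. Within the FKBP family, Fkbp8 alone of 10 tested was called, with a log2 fold change of 0.38, and Fkbp4, the co-chaperone that competes with the Fkbp5 product, had means of 23540 and 24682 at adjusted p = 0.834 in the authors' deposited table.

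In the pathways on which the members act, some genes were called, where 6.71% of all genes tested were higher and 7.76% lower in females. Whether the counts of these short lists differ from those shares was not tested. Around Nfkbia, 3 of 9 tested NF-kB genes were higher and 1 lower in females. Rela, the activating subunit, rose from 1602 to 2637, Nfkb2 from 836 to 1399, and the kinase gene Ikbkb from 708 to 1008, while its partner Chuk fell by 0.54 in the authors' deposited table. Around Ddit4, 3 of 9 were called higher and none lower: Tsc2 (log2 fold change 0.57), through which the Ddit4 product acts, Mtor (0.42), the kinase it holds back, and Rptor (0.43), the kinase's partner, all by the authors' deposited table. Female means were above male means for 5 of these 9 and below for 4. Among the 4 was Rheb, with a log2 fold change of -0.37 at adjusted p = 0.0775 in the authors' deposited table. Around Errfi1, 1 of 8 was called, the receptor gene Erbb2, which rose from 400 to 607 in the authors' deposited table. Erbb4, its neuregulin-binding partner, stood at a log2 fold change of -0.45, with adjusted p = 0.141 in the authors' deposited table.

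In the lists around the remaining members, 3 of 23 genes tested were called, against 14.5% of all genes. Of 8 tested genes linked to Sgk1 none passed 0.05, and among them its kinase Pdpk1 had means of 1120 and 1034 and its target Nedd4l averaged 836 and 1004 in the authors' deposited table. At an unadjusted p under 0.05 there was 1, against 27.3% of all genes. Of 3 other TSC22 genes none passed at either level, and Tsc22d1 had means of 4776 and 4142. Of 5 tested genes on the C/EBP list around Cebpd, Cebpg fell by 0.57, and Cebpb had means of 426 and 615 at adjusted p = 0.09996 in the authors' deposited table. Among 7 BTB zinc finger genes and partners, Zbtb17 was higher with a log2 fold change of 0.42, and Cul3, the ubiquitin ligase scaffold that BTB proteins recruit, fell by 0.73. Bcl6b, the closest relative of Bcl6, had means of 953 and 963, both from the authors' deposited table.

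**Figure D3:**
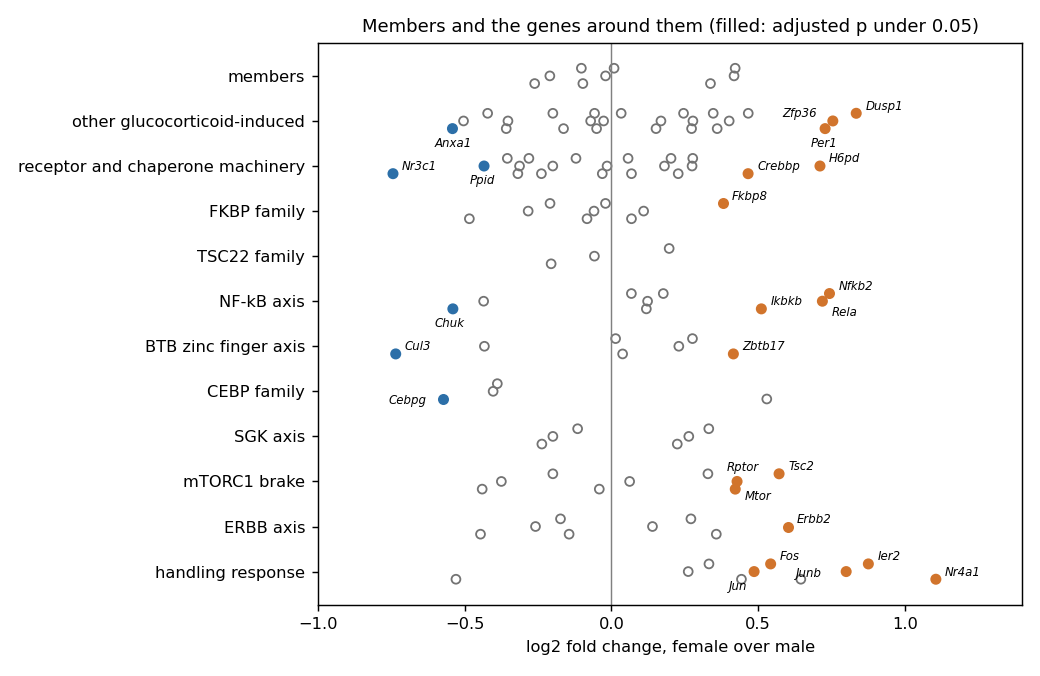
Log2 fold change, female over male, of each gene with a mean of at least 10 in the 9 members and the lists around them; filled points passed an adjusted p of 0.05 (orange higher, blue lower in females) and open points did not. Hsp90aa1, with a log2 fold change of -8.41, lies beyond the axis, and 2 genes not reported here are not drawn. The row of members holds no filled point, and the handling row has 5, all to the right of 0.

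All 9 cardiomyocyte markers were measured and summed to 3567770 for males and 4264900 for females; atrial markers were not compared. Of them 2 were higher in females and none lower, where 6.71% and 7.76% of all genes tested were. The 2 were Myh6, with a log2 fold change of 0.68, and Ryr2, with 0.37, in the authors' deposited table. Markers of other cells were present at lower sums. Endothelial markers summed to 19310 and 19099, with 1 of 7 higher and 1 lower, mural markers to 5378 and 5549, and leukocyte markers to 920 and 759. None of 6 mural and 7 leukocyte markers was called, and 2 and 0 had an unadjusted p under 0.05, against 27.3% of all genes. The 2 mural genes went opposite ways, Cspg4 with a log2 fold change of 0.57 and Rgs5 with -0.46 in the authors' deposited table. Fibroblast markers summed to 18046 and 8936, with 3 of 6 tested lower in females and Col1a2 listed at 0 in both sexes. The 3 were Col3a1, Col1a1 and Postn, and Col3a1, with means of 10722.5 and 3915, weighed most in the male sum. Pdgfra, Dcn and Lum had lower female means too but were not called, at adjusted p = 0.483, 0.524 and 0.505 in the authors' deposited table. Several members, Tsc22d3 and Zbtb16 among them, are expressed in such cells too, and the part of these cells in the members' means was not tested. In bulk RNA, fewer cells of a type cannot be told apart from less RNA per cell. Size factors, which measure relative depth, ran from 0.811 to 1.17 in males and from 0.972 to 1.14 in females.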

How the data were processed

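Ribosomal RNA was depleted and stranded paired-end libraries were made from 650 ng of RNA (integrity number 9 or higher), per the labels' protocols. Reads were handled with HTSeq 0.6.1, TopHat2 2.0.12, Trimmomatic 0.32, FastQC and DESeq on build rn6, per the submitters' processing notes, which give no order; the annotation and whether reads were counted by strand are not given in the sources used here. The authors deposited a normalized signal per gene, the count divided by a size factor and averaged over all libraries and over groups A and B. They also deposited the fold change as a ratio of B to A, its log2 value, and a p-value with its adjusted value. The mean over all libraries was the average of A and B weighted 6 to 5 in all 13346 genes with reads (relative difference under 1e-09) and in 0 with the weights exchanged, so A was read as male and B as female. Recomputing the Benjamini-Hochberg adjustment matched the deposited values to 3.3e-15, after being tested on simulated data.

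Calls are the authors' adjusted p under 0.05. Python 3.11.15, pandas 2.3.3 and scipy 1.17.1 gave counting intervals at 95% (exact binomial on the rounded group sums), new adjustments and promoter matches. Whole reads per library can be searched in the digits of the means up to a male mean of 30 and a female mean of 100. No member was that low, so no test over libraries was run for any, nor the search for genes of like pattern. Size factors are the inverse of the smallest distinct sums. The members and all lists were chosen with earlier results of these data known. Beside every member, up to 4 genes of each list that had a mean of 10 or more and the lowest p were to be named; any other named gene was chosen after its values were seen, and some genes of the lists are not reported here. Of 126 genes on the lists around the members, 115 were tested and 9 had no row under their symbol or an older one and were not analysed here.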

Additional observations from a re-analysis of the deposited data

How the results depend on the processing

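The number of members called stayed at 0 at an adjusted p under 0.01 and with the adjustment made over genes with a mean of at least 10 or at least 50, where Nfkbia had adjusted p-values of 0.0704 and 0.0631, and became 1, Nfkbia, under 0.1. Rescaling both sexes to the same total over all rows moved the median log2 fold change of genes with a mean of at least 50 from -0.0028 to 0.15 and turned Fkbp5 to 0.129, Zbtb16 to 0.0468 and Sgk1 to 0.0519. Rows with no gene symbol held 57.5% of the male and 50.7% of the female sum. The same total over rows with a symbol turned Bcl6 to -0.0534. Centring on the median turned no member. With the adjustment over genes with a mean of at least 50, other glucocorticoid-induced genes higher in females went from 3 to 5, adding Foxo1 (0.0466) and Lpin1 (0.0475). Genes of the C/EBP list lower in females went from 1 to 3, adding Cebpz (0.0468) and Ddit3 (0.0479). The share of all genes called at that setting was not computed. Of 32 list counts, 11 moved by over 1.5 times or to or from 0 at an adjusted p under 0.01, and 8 under 0.1. Leaving out libraries and other pseudocounts could not be run on group means. No paired analysis was possible because the columns are group means and carry no replicate number.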
